A study of Mus musculus with 41 samples.

Results

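SOX9 binding in the skin epidermis was compared between 1 week (W1) and 2 weeks (W2) of induced SOX9. The members were all peaks of the pooled SOX9 lists of W1 (15651 peaks) and W2 (18657 peaks), together 34308 of the 328085 peaks in the 18 lists of the series. A peak that overlapped a peak of the other list by at least 1 bp was called shared, and the rest were called W1-only or W2-only.

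Mice of the genotype K14rtTA; TRE-myc-Sox9 (strain CD1, male) received doxycycline (DOX) by injection at P21 and stayed on DOX feed, so that the keratin 14 promoter drove the rtTA that switches on MYC-tagged SOX9 in keratin 14-positive epithelium. Back skin epidermal stem cells (EpdSCs) were sorted by high CD49f and high Ly6A among cells negative for CD34 and for CD31, CD45, CD117 and CD140a, at P28 for W1 and at P35 for W2, with 2 biological replicates at each time whose fragments were pooled before peaks were called. SOX9 was mapped by CUT&RUN (CNR), in which a nuclease tethered to an antibody releases the DNA at the bound site, here with an antibody to SOX9 itself and not to the tag. Both groups carry the same alleles and DOX, age and weeks on DOX cannot be told apart, CD1 is an outbred stock, and a peak list holds no RNA, so the sorted cell type could not be checked against its markers.

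SOX9 is a transcription factor with an HMG box, a domain that binds the minor groove of DNA and bends it, and it is a known master regulator of hair follicle stem cell fate that adult interfollicular EpdSCs normally lack. SOX9 is also known to bind DNA as a dimer at facing copies of its core word. MLL3 and MLL4, mapped by CNR in mice of the same genotype, are histone methyltransferases that mark enhancers with H3K4 monomethylation.

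Each group is 1 pooled list, so there is no spread between replicates and no test between W1 and W2, and every interval below is a 95% Wilson interval for a share, or an order-statistic interval for a median, that covers counting error only. Sequenced fragments without molecular identifiers are not independent molecules. Maximum signals were whole multiples of 57.6 RPKM at W1 and of 76.4 RPKM at W2, the value of 1 fragment, which corresponds to 17.4 M and 13.1 M fragments (M, mega). The weakest W1 peak therefore held 32 fragments at its maximum and the weakest W2 peak 24, and a peak called W1-only or W2-only may have signal below that minimum in the other list. A 300-kb segment around Cwc22 on chromosome 2 (77850001 to 78150000, mm10), which lies in a region known to vary in copy number between mice, stood apart: it held 10 SOX9 peaks at W1 and 1 at W2, and 104 MLL3/4 peaks at W1, 27 at W2 and 7 at D0. Copy number was not tested, and results that rest on this segment are given with and without it. Peaks that also appeared on either MYC-tag CNR list of cultured cells without DOX, where no tagged SOX9 is induced, made up 14.1% of shared W1 peaks, 3.70% of W1-only peaks and 7.66% of W2-only peaks.

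The printed sequences show an arrangement that was far more frequent in SOX9 peaks than in their flanks, a facing pair of SOX cores (ACAAAG or ACAATG, then 3 to 5 bases, then CTTTGT or CATTGT). Each window runs from 50 bases before the centre of the maximum to 50 bases after it, read from the plus strand of mm10 and outside annotated exons, with every SOX core in capitals on either strand. For each class, windows of high total signal with such a pair are shown, outside the Cwc22 segment and the no-DOX peaks and with 1 chromosome not searched, and the windows near Tcf7l2 and Foxc1 were added as nearest to hair follicle transcription factors. The shared windows are chr10:67846146-67846246 (intergenic) near Zfp365 and, in introns, chr10:21839471-21839571 near Sgk1, chr10:76865798-76865898 near Pcbp3, chr19:55788411-55788511 near Tcf7l2 and chr13:31900318-31900418 near Foxc1. Each gene named is the one with the nearest coding start, at 42663 bp for Sgk1, 39979 bp for Pcbp3 and 45616 bp for Tcf7l2. The Foxc1 window lies 93735 bp from a Foxc1 start, within the gene body of Gmds. The W1-only and W2-only windows with a facing pair are intergenic. Those of W1 are chr2:145164514-145164614 near Slc24a3 and chr1:150014206-150014306 near Pla2g4a, and that of W2 is chr7:64100783-64100883 near Trpm1.
Zfp365, shared: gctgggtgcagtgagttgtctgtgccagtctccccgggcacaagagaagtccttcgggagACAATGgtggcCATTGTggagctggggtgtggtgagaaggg
Sgk1, shared: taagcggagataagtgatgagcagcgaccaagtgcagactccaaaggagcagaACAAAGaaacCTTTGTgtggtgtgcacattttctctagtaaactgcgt
Pcbp3, shared: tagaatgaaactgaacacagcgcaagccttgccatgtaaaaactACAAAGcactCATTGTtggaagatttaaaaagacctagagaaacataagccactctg
Tcf7l2, shared: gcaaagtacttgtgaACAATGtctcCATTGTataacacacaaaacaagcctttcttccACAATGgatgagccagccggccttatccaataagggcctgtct
Foxc1, shared: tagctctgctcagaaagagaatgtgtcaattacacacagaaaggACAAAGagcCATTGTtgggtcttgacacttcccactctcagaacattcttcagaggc
Slc24a3, W1-only: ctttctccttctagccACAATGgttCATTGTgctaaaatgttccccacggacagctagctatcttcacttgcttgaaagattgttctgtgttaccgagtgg
Pla2g4a, W1-only: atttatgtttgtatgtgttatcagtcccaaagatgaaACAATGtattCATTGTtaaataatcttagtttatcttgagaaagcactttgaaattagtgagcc
Trpm1, W2-only: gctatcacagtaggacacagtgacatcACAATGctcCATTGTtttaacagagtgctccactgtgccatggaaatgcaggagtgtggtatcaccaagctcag
The Sgk1 window had a gap of 4 bases between its cores, belonged to a W1 peak with 407 fragments at its maximum and a rank percentile of 99.7, and had no MLL3/4 peak at D0 but one at both W1 and W2. The windows near Zfp365, Pcbp3, Tcf7l2 and Foxc1 shared that MLL3/4 pattern. The Tcf7l2 window held 3 cores, and its peak had 258 fragments at W1. The W1-only window near Slc24a3, with 56 fragments at W1, was on all 3 MLL3/4 lists, and the W2-only window near Trpm1, with 34 fragments at W2, on those of W1 and W2.

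Most sites bound at W1 were still listed at W2. Of the W1 peaks, 12163 were shared and 3488 were W1-only (22.3%, interval 21.6 to 22.9), and of the W2 peaks 12809 were shared and 5848 were W2-only (31.3%, interval 30.7 to 32.0). Which list held the larger share of its own peaks turned with the size and depth of the lists. When W2 was reduced to the size of W1 by total signal, 28.7% of W1 and 25.5% of W2 peaks were unshared, and when at least 32 fragments were required in both, the shares were 32.5% and 22.7%. Both steps removed peaks from W2 alone. A threshold of 3600 RPKM in both lists went the other way, with 20.2% and 49.5%. A site listed at 1 time only was usually not a near miss. The median distance from a W1-only peak to the nearest W2 peak was 14140 bp and from a W2-only peak to the nearest W1 peak 16283 bp. Only 21 W1-only and 39 W2-only peaks lay within 100 bp of the other list, while the smallest overlap among sites that paired 1 to 1 was 71 bp.

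SOX9 peaks were narrower at W2 than at W1. The median width was 721 bp for shared and 557 bp for W1-only peaks of the W1 list (quartiles 554 to 955 and 419 to 723), and 465 bp for shared and 390 bp for W2-only peaks of the W2 list (quartiles 360 to 612 and 322 to 481). At the 11514 sites where 1 W1 peak met 1 W2 peak, the W1 peak was the wider in 90.7% (90.2 to 91.2), the W2 peak lay wholly within the W1 peak in 73.2%, and the median log2 ratio of widths, W2 over W1, was -0.51 (SD over sites 0.50). The maxima of these pairs lay a median of 15.5 bp apart. In all, 624 W1 peaks spanned 2 or more W2 peaks, against 16 W2 peaks that spanned 2 W1 peaks. The W1 list covered 11.8 Mb and the W2 list 8.99 Mb, with 6.36 Mb in both. The number of fragments differed between the lists (17.4 M against 13.1 M), and its part in width was not tested.

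**Figure D1:**
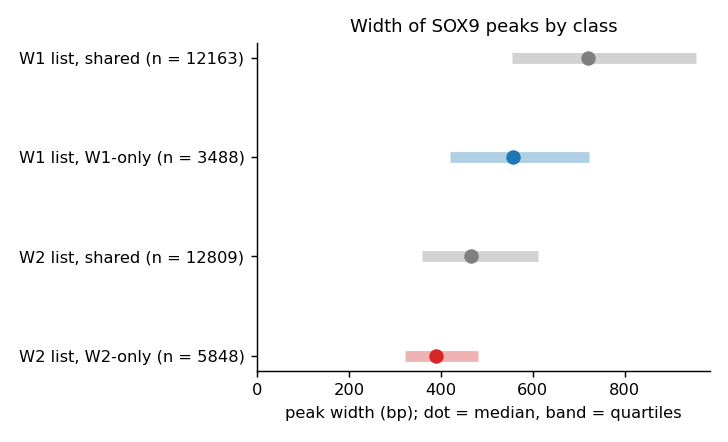
Width of SOX9 peaks in bp (x axis) by list and class (y axis); dots are medians and bands run from the lower to the upper quartile. Both W2 classes, at medians of 465 and 390 bp, sit to the left of both W1 classes, at 721 and 557 bp.

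Splitting could be seen at single loci. Vdr encodes the vitamin D receptor, a transcription factor needed for hair follicle cycling. At its intronic site on chromosome 15, the W1 peak from 97882152 to 97883906 (1755 bp, rank percentile 99.4) matched W2 peaks from 97882261 to 97883057 and from 97883266 to 97883890. Lrig1 encodes a negative regulator of the EGF receptor and marks stem cells of the upper hair follicle. There the W1 peak from 94717387 to 94719753 on chromosome 6 (2367 bp) matched W2 peaks of 649 and 1540 bp.

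The shared portion of both lists rose with rank. Within each list, peaks were ranked by total signal, with 100 as the highest percentile. The median percentile was 58.7 for shared and 23.3 (22.3 to 24.1) for W1-only peaks, and 62.4 for shared and 27.3 (25.8 to 27.3) for W2-only peaks. From the lowest to the highest decile the shared portion rose from 39.4% to 99.4% of W1 peaks and from 36.5% to 98.8% of W2 peaks. In the upper decile, 10 of 1568 W1 peaks were W1-only and 22 of 1867 W2 peaks were W2-only. At sites that paired 1 to 1, ranks at W1 and W2 had a Spearman correlation of 0.71 over 11514 sites, a description only, since the lists come from the same tissue and genome and sites are not replicates.

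**Figure D2:**
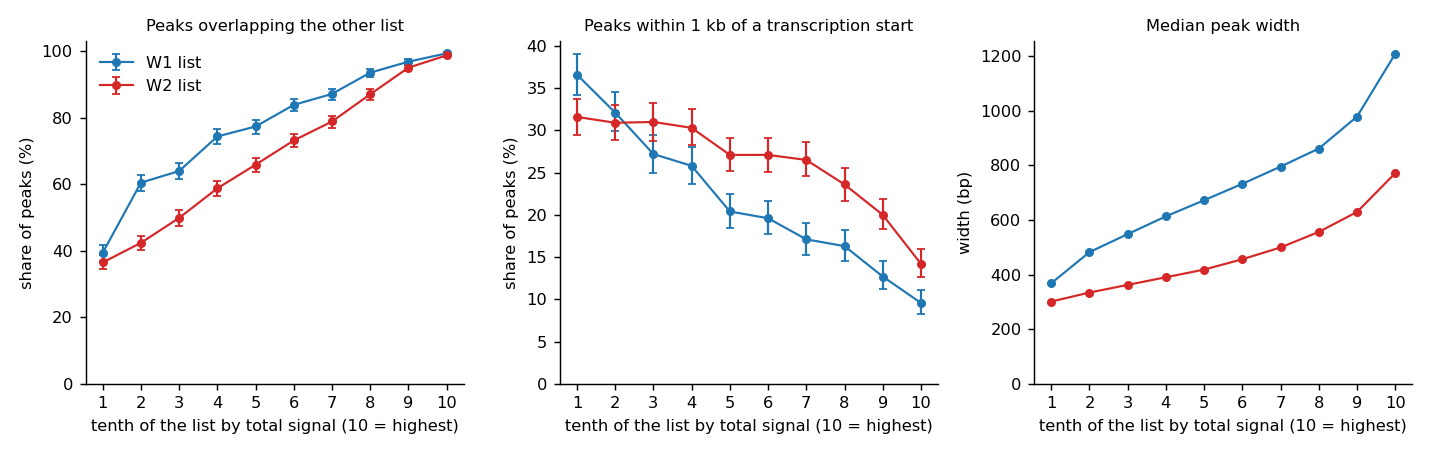
Left and middle, share of peaks (%) that overlap the other list and that lie within 1 kb of a transcription start, and right, median width (bp), each by decile of total signal within the list (10 is the highest); bars are 95% Wilson intervals. The shared portion rises to 99.4% at W1 and 98.8% at W2, and the promoter portion falls toward the top of both lists.

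The highest peaks of each class had different neighbours. The 3 highest shared peaks of each list lay on chromosome 2 at Gm10800 or Gm10801, or on chromosome 17 where Esp38 is the nearest protein-coding gene, and all of them were also on the no-DOX MYC-tag lists. Outside those lists, a pair of sites, chosen after their values were seen, were among the 5 highest remaining peaks at both times. The site 234697 bp from Irx1, a homeobox factor gene, ranked 8 of 15651 at W1 with 267 fragments and 5 of 18657 at W2 with 257 fragments. The site in an intron 5345 bp from a start of Afdn, which encodes the cell junction protein afadin, ranked 5 at W1 with 231 fragments and 10 at W2 with 171 fragments. Both sites were already on the D0 lists of SOX9 and MLL3/4. The 3 highest W1-only peaks all lay in the Cwc22 segment (97.5 to 98.8 percentile), and the highest of them, at the Cwc22 promoter with 128 fragments, was also on the D0, W6 and W12 lists. With that segment set aside, a choice made after the values were seen, the leading W1-only peaks were a 2269-bp peak at the promoter of Rcan2, a calcineurin regulator (chromosome 17, 44024763 to 44027031, percentile 97, 61 fragments), and a 1722-bp peak 8522 bp from Trp53inp1, a target of p53 (percentile 96.1, 61 fragments). Neither recurred at W6 or W12, and both had MLL3/4 at D0, W1 and W2. The 3 highest W2-only peaks lay in an intron 10570 bp from a start of Dock9, a guanine exchange factor for CDC42 (chromosome 14, 121614470 to 121616108, percentile 98.6, 57 fragments), near 1600014C23Rik (percentile 97, 46 fragments) and 150686 bp from Med13l, a subunit of the Mediator kinase module (percentile 96.8, 67 fragments). The Dock9 peak was listed again at W6 and W12, the Med13l peak at W6, and the 1600014C23Rik peak at neither.

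Single shared sites moved across most of the range of ranks. The 3 largest rises and falls are given for 1-to-1 sites above the median rank in at least 1 list. A site on chromosome 13 whose nearest coding start is that of Hdgfl1, 610078 bp away, went from percentile 15.1 with 37 fragments (406 bp) at W1 to 93.6 with 119 fragments (402 bp) at W2. Sites near Samd9l (11.7 to 90.2, 85 to 256 fragments) and Xylt1 (2.60 to 79.9, 42 to 124 fragments) rose likewise, and the Samd9l site was also on a no-DOX list. In an intron near Mpp5, which encodes a cell polarity scaffold, the percentile dropped from 90.5 with 77 fragments (713 bp) to 1.98 with 25 fragments (332 bp). At the Retreg1 promoter it dropped from 85.0 to 2.74 while the fragments at the maximum went from 37 to 32, and the width from 1914 to 221 bp. The site near Phtf2, also on a no-DOX list, dropped from 88.4 to 7.48. Since total signal sums over the width of a peak, rank carries the difference in width as well as in height.

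W2-only peaks lay at promoters more often than W1-only peaks. Within 1 kb of an annotated transcription start were 32.6% of W2-only peaks (1905 peaks, interval 31.4 to 33.8), 23.5% of shared W1 peaks (22.8 to 24.3) and 15.6% of W1-only peaks (545 peaks, 14.5 to 16.9). Introns held 44.1% of W1-only and 35% of W2-only peaks, and intergenic DNA 37.5% and 30.2%. The order of the 3 classes was the same with equal list sizes, above 3600 RPKM, with promoters of 2.5 kb and without no-DOX peaks. Promoter peaks were the weaker ones in both lists, falling from 36.6% of the lowest to 9.57% of the highest decile at W1 and from 31.6% to 14.2% at W2. W1-only and W2-only peaks both sat low in their lists, and the part of rank in their promoter shares was not tested. Below the median rank the promoter share was 17.8% for W1-only and 34.0% for W2-only peaks, and above it 5.26% and 27.2%.

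At shared sites promoters gained rank relative to distal sites. At 2721 promoter sites that paired 1 to 1 the median percentile was 38.7 at W1 and 56.7 at W2, 78.5% of them rose in rank, and the median change was 14.1 points (13.2 to 14.9), whereas of 8793 distal sites, with medians of 61.6 and 64.4, 56.3% rose and the median change was 1.66 points (1.34 to 1.93). The lists differ in length, and with equal list size the median changes were 8.78 points at promoters and -1.04 at distal sites, and with ranks among the paired sites alone 9.85 and -1.20 (both chosen after the values were seen), so the direction at distal sites turned. Promoter sites also started lower. Among sites of the lowest W1 decile, the median change at promoters, 16.3 points (13.4 to 18.9), did not exceed that at distal sites, 19.6 (15.9 to 22.4), while in the fourth decile it was 20.4 (18.1 to 22.4) against 8.94 (5.96 to 11.2) and in the eighth 8.11 (6.37 to 10.4) against 0.0908 (-1.16 to 1.36). Ranks by maximum signal gave median changes of 11.8 and 0.941 points. The leading W2-only promoter peaks, chosen after their values were seen, were at Ifitm2, an interferon-induced membrane protein (percentile 93.8, 58 fragments), Krt17, a keratin of the hair follicle outer root sheath and of stressed epidermis (chromosome 11, 100260946 to 100261976, percentile 91.9, 42 fragments), and Nedd9, a focal adhesion scaffold (percentile 89.1, 41 fragments). All 3 were listed again at W6, not at W12, and had MLL3/4 at W1 and W2. The leading W1-only promoter peaks after Rcan2 were at Mbnl2, a splicing regulator (percentile 88.1, 40 fragments), and Lce6a, a late cornified envelope gene (percentile 84.5, 46 fragments), and neither was listed at W6 or W12.

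Base composition moved with these classes. The central windows had a mean GC content of 44.1% (SD over windows 7.34) in W1-only, 47.3% (7.75) in shared W1 and 52.1% (8.86) in W2-only peaks. Windows 1 kb away were at 44.1%, 45.3% and 46.5%. The gap remained at distal peaks, with 43.1% in W1-only and 48.9% in W2-only windows, and 5 or more CpG dinucleotides were found in 30.6% of W1-only and 56.1% of W2-only promoter windows. The part of base composition in the place of the peaks was not tested.

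The SOX word (CCATTGT or CCTTTGT, either strand) was most frequent in shared and W1-only windows. At distal peaks it was in 13.9% of shared W1 windows (13.2 to 14.6), 11.9% of W1-only windows (10.8 to 13.1) and 8.70% of W2-only windows (7.86 to 9.62), beside 3.58%, 3.58% and 3.53% of windows 1 kb away. At promoters it was in 7.21%, 10.6% and 3.46% of windows, beside 3.15%, 3.39% and 2.89%, so that in W2-only promoter windows the interval of the share (2.73 to 4.38) included the level 1 kb away. Above the median rank the order was the same, with 14.3% of shared W1 (13.5 to 15.2), 11.1% of W1-only (8.80 to 13.9) and 9.06% of W2-only distal windows (7.36 to 11.1). There the W1-only interval overlapped both others. Where a word lay within 100 bp of the maximum, its median distance from it was 24 bp in W1-only and 35 bp in W2-only peaks. W2-only windows were richer in GC, and the part of base composition in the difference was not tested.

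Facing pairs of SOX cores, which overlap the SOX word, had overlapping intervals in W1-only and shared windows and were scarcer in W2-only windows. A pair with 3 to 5 bases between its cores was in 174 of 12163 shared W1 windows (1.43%, 1.23 to 1.66) and in 48 of 3488 W1-only windows (1.38%, 1.04 to 1.82), but in 21 of 5848 W2-only windows (0.359%, 0.235 to 0.548). Windows 1 kb away held 3 of 24326, 0 of 6976 and 2 of 11696. The spacing was narrow: in shared W1 windows a gap of 4 bases occurred 75 times, of 3 bases 54 times and of 5 bases 45 times, against 6 times for 2 bases and 9 times for 6 bases. Pairs pointing away from each other at the same gaps were in 6 shared W1 windows and tandem pairs in 13. Shared peaks with a facing pair had a median percentile of 75.2 at W1 and 79.7 at W2, whereas W1-only and W2-only peaks with a pair had 15.2 and 15.4. At the Vdr promoter region a shared site with a facing pair, 870 bp from a start, had 166 fragments at W1 (percentile 78.2) and 194 at W2 (91.5).

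**Figure D3:**
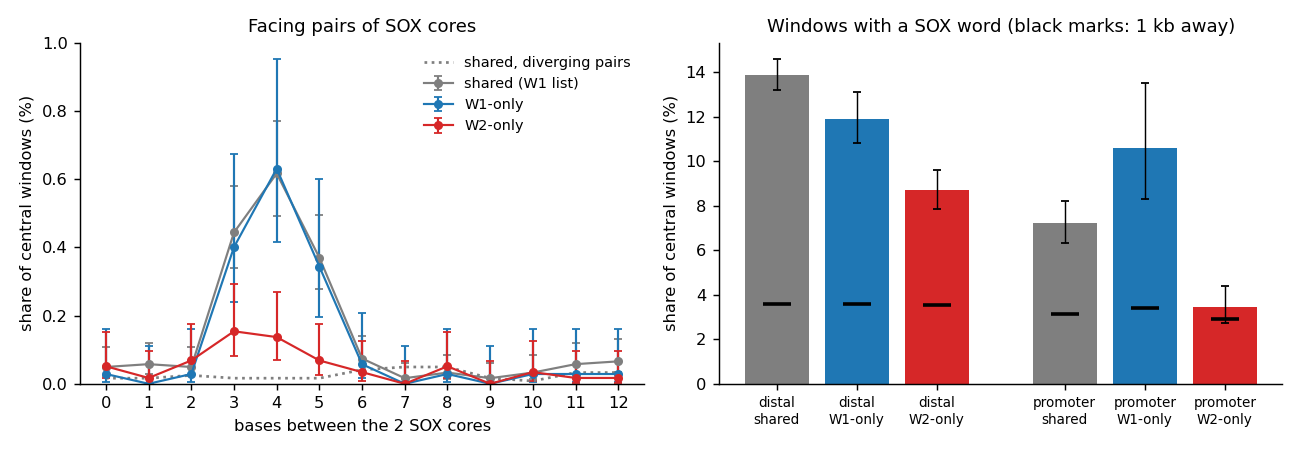
Left, share of central windows (%) with a facing pair of SOX cores against the number of bases between them, for shared (W1 list), W1-only and W2-only peaks, with diverging pairs in shared windows as a dotted line. Right, share of distal and promoter windows (%) with a SOX word, and black marks for windows 1 kb away; bars are 95% Wilson intervals. Facing pairs concentrate at gaps of 3 to 5 bases, where W2-only windows are the lowest, as they are in the right panel.

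Words of other factors were compared in the same windows. The AP1 word (TGACTCA), bound by FOS and JUN dimers, was in 18.6% of shared W1, 16.7% of W1-only and 16.9% of W2-only distal windows, beside 2.13%, 2.04% and 2.09% 1 kb away. The SP and KLF word (GGGCGG) was in 18.2% of W1-only, 25.7% of shared W1 and 35.5% of W2-only promoter windows, beside 4.95%, 4.53% and 5.75%. The ETS word (CCGGAAG) was in 3.67%, 2.76% and 6.56% in the same order, beside 0.275%, 0.805% and 1.18%. The NFY word (CCAATCA), a promoter element, was in 12% (10.8 to 13.2) of shared W1 promoter windows, beside 0.665%. It was in 8.26% (6.23 to 10.9) of W1-only and 6.67% (5.63 to 7.88) of W2-only promoter windows, beside 1.38% and 1.13%. The W1-only interval overlapped both others. The GATA word (AGATAA) was in 9.55% of W1-only distal windows beside 6.59% 1 kb away and in 5.88% of W2-only beside 5.36%, and the TCF and LEF word (CTTTGAT) in 2.85% beside 1.38% and 1.62% beside 1.69%. The TEAD word (GGAATG) was in 8.46% and 7.25% beside 5.83% and 5.62%. Words for RUNX (AACCACA, 1.83% and 2.54%) and homeodomain factors (TAATTA, 3.60% and 2.38%) were near their flanks in W1-only and W2-only distal windows (2.43% and 2.80%, 3.19% and 2.69%). The CREB word (TGACGTCA) was in 0.980% of shared W1, 1.28% of W1-only and 1.47% of W2-only promoter windows, beside 0.0875%, 0.275% and 0.0787% 1 kb away. The YY1 word (AAGATGGC) and the longer NFI, NRF1, CTCF and TP63 motifs were each in at most 0.945% of shared W1, W1-only or W2-only windows at promoters or distal sites. These matches describe letters in a window and not bound factors.

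One promoter window is shown for the SP and KLF word. It holds no SOX core, whereas 2 of the 5 leading W2-only promoter peaks, at Nedd9 and near Srrm1, hold a SOX word. The latter lies 16033 bp from a coding start of Srrm1 and is a promoter peak by another annotated start. The leading W2-only promoter window with an SP and KLF word and outside exons was chr10:127621780-127621880 (mm10, plus strand) at Lrp1, which encodes an endocytic receptor, 682 bp from a start, with 53 fragments and a percentile of 85.2; capitals mark the word on the minus strand.
Lrp1, W2-only: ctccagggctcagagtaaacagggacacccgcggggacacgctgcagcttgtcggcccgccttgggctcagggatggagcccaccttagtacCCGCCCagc
This site was listed again at W6 and W12 and had MLL3/4 at D0, W1 and W2.

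W2-only sites were found again at W6 more often than W1-only sites. The W6 list overlapped 84.9% of shared W1 peaks, 32.8% of W1-only peaks (31.3 to 34.4) and 54.0% of W2-only peaks (52.7 to 55.2), beside 6.20%, 3.57% and 3.79% for the same peaks moved by 10 kb. At W12, whose list is shorter, the values were 42.6%, 11.8% and 12.3%, and W1-only and W2-only intervals overlapped. Per the study's methods, the W12 samples came from newborn skin grafted onto immunocompromised female mice and given DOX after healing. Grafting and time therefore cannot be told apart at W12. Of W1-only peaks, 65.3% were on neither later list, against 45.7% of W2-only peaks. Above the median rank the gap was wider, with 25.3% of W1-only and 72.9% of W2-only peaks listed at W6. The SOX9 list before induction (D0, 792 peaks) overlapped 5.71% of shared W1, 1.06% of W1-only and 0.359% of W2-only peaks.

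MLL3/4, a readout the classes did not use, differed between W1 and W2 in opposite directions at W1-only and W2-only sites. At W1 the MLL3/4 list overlapped 64.4% of W1-only peaks (62.8 to 66) and 52.3% of W2-only peaks (51.0 to 53.6), and at W2 it overlapped 52.9% (51.2 to 54.5) and 62.4% (61.1 to 63.6), although the W2 MLL3/4 list is the shorter (29281 against 31539 peaks). Before induction the shares were 56.0% and 57.4%. At promoters the D0 shares were the highest of the 3 times, with 69.0% of W1-only peaks at D0 and 55.8% at W1, and 72.5% of W2-only peaks at D0 and 56.2% at W2. The D0 list was also the longest, with 37072 peaks. W1-only and W2-only peaks moved by 10 kb gave between 3.92% and 5.32%. Among W1-only peaks, 694 had MLL3/4 at W1 and not W2 and 292 at W2 and not W1, while among W2-only peaks the numbers were 634 and 1226. Shared W1 peaks had 840 and 767 and were on the W1 and W2 lists in 87.1% and 86.5%. At sites with no MLL3/4 peak at D0, 42.8% of W1-only peaks had one at W1 and 29.0% at W2, 35.9% of W2-only peaks had one at W1 and 47.6% at W2, and 72.6% and 70.5% of shared W1 peaks did. Promoters showed the contrast less than distal sites: of changed sites, the W2-and-not-W1 kind was 45.1% (38.3 to 52.1) of W1-only and 60.5% (56.8 to 64.1) of W2-only promoter peaks, against 25.8% and 69.1% of distal peaks. Without the Cwc22 segment the W1-only shares were 64.3% at W1 and 52.8% at W2. Each MLL3/4 list is 1 pooled list as well, from mice of the same ages as the SOX9 lists.

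**Figure D4:**
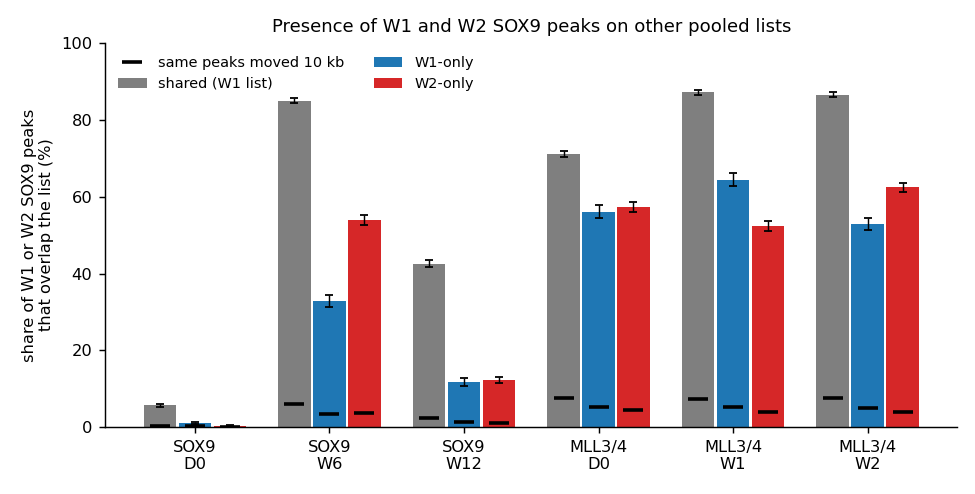
Share (%) of shared W1, W1-only and W2-only SOX9 peaks that overlap the pooled SOX9 lists of D0, W6 and W12 and the pooled MLL3/4 lists of D0, W1 and W2; bars carry 95% Wilson intervals and black marks give the same peaks moved by 10 kb. W2-only peaks exceed W1-only peaks at SOX9 W6 (54.0% against 32.8%) and MLL3/4 W2, and W1-only peaks exceed W2-only peaks at MLL3/4 W1.

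Genes were linked to peaks by the nearest protein-coding start within 100 kb of the centre of the maximum, which says nothing of regulation. Of 21911 protein-coding genes, 5135 (23.4%) had at least 1 shared peak of the W1 list, 2147 (9.80%) at least 1 W1-only and 3611 (16.5%) at least 1 W2-only peak, and 14372 had none of these. Counting shared W2 peaks as well, 14330 genes (65.4%) had no peak of either list. A shared peak was present at 61.6% of genes with a W1-only peak and 51.8% of genes with a W2-only peak, and 844 genes had both kinds of unshared peak. The densest shared loci were 2010111I01Rik (21 shared W1 peaks), Tmem45a (18), Nhsl1 (17), Arid5b (15) and Mbnl2 (15), where ties at 15 were ordered by name. After Cwc22 with 9, the most W1-only peaks were at Kank1, an actin regulator (7), and then at Arid5b, Cobl and Ehf (6 each), with Pde4d, Sema3d and Zbtb20 also at 6 and later by name. Ehf encodes an epithelial ETS factor, and it also had 5 W2-only and 8 shared W1 peaks. Cobl, an actin nucleator, had 6 W1-only and no W2-only peaks. The most W2-only peaks were at Tns3, a focal adhesion protein (11, with 0 W1-only), followed by Sema6a, Tgfbr3, Tiam1 and Zbtb7c (8 each). Tiam1 encodes a RAC1 exchange factor and had 2 W1-only peaks, and Zbtb7c had none.

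Of 12 hair follicle transcription factors, 10 had a shared, 6 a W1-only and 7 a W2-only peak. Of their W1 peaks 13.9% (7.72 to 23.7) were W1-only and of their W2 peaks 24.4% (16.6 to 34.5) W2-only, and both intervals included the shares over the peaks of all genes, 22.0% and 32.1%. Runx1, a factor of hair follicle stem cell activation, had 11 shared and 2 W1-only peaks at W1, and 11 shared and 3 W2-only peaks at W2. Barx2, a homeobox factor, had 11 shared and 3 W1-only peaks at W1 and 12 shared and 3 W2-only peaks at W2. Nfatc1, a factor of stem cell quiescence, had 10 shared and no W1-only peak at W1 and 2 W2-only peaks at W2. Vdr went from 9 peaks at W1 to 16 at W2, 5 of them W2-only, and Foxc1, a factor of stem cell maintenance, from 6 to 9. Lhx2 had 1 W1-only peak (percentile 53.8, 35 fragments, not within 10 kb of the gene body) and none at W2, and Tbx1 had none. Among 15 follicle surface and secreted factors, 2 genes had a W1-only and 6 a W2-only peak. Their W1-only share, 6.25% (1.73 to 20.1), lay below the 22.0% of all genes, and the interval of their W2-only share, 27.3% (16.3 to 41.8), included the 32.1%. Epcam, an adhesion molecule, went from 7 to 11 peaks with 3 W2-only, Cd34 and Fst, which encodes follistatin, from 1 to 3 each, and Postn (3), Sfrp1 (4) and Dkk3 (2) had the same number of shared peaks at both times. Within 10 kb of the gene body Fst had no peak at either time, Barx2 went from 11 to 9 and Runx1 had 10 at each. Epcam and Foxc1 each kept 1 shared peak at both times there, with 1 and 2 W2-only peaks. Cd34 had only 1 W2-only peak within that distance, while the counts of Vdr were unchanged.

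Of 20 epidermal structure and adhesion genes, 12 had a W1-only and 9 a W2-only peak, and the W1-only share of their W1 peaks (20.9%, 13.7 to 30.7) was close to that of all genes, while the W2-only share of their W2 peaks (19.4%, 12.6 to 28.5) lay below the 32.1% of all genes. Krt1 and Krt10, the keratin pair of suprabasal cells, each had 1 peak at W1 and none at W2: for Krt1 it lay on chromosome 15 from 101855228 to 101856264 (percentile 77.8, 62 fragments) and was also on the D0 list, and for Krt10 on chromosome 11 from 99403520 to 99404587 (percentile 79.7, 43 fragments). Lor, which encodes the cornified envelope protein loricrin, also had 1 W1-only peak (percentile 27.0, 62 fragments), as did the desmosomal cadherin gene Dsg1a (19.2). None of the peaks at Krt1, Krt10 or Lor was listed at W6 or W12. Over all genes, 662 of 21911 had W1-only peaks and no other. With peaks counted only within 10 kb of the gene body, Krt10 and Lor had no peak at either time, and Krt1 and Dsg1a kept theirs. Other genes of the list differed: Ivl, which encodes involucrin, had 1 W2-only peak (none within 10 kb), Dsc1, which encodes a desmocollin, went from 2 to 3 peaks with a W2-only peak at its promoter, Tgm1, which encodes a transglutaminase, kept 1 shared peak, and Flg, which encodes filaggrin, had none at either time. Among genes of basal cells, Krt5 had 4 W1 and 5 W2 peaks with 1 W1-only, Krt14 had 4 and 7 with 3 W2-only, Cldn1 had 10 and 8 with 3 W1-only, Col17a1 had 6 and 4 with 2 W1-only, and Lama3 had 4 and 7 with 3 W2-only.

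Of 17 epidermal transcription factors, 10 had a W1-only and 14 a W2-only peak. Of their W1 peaks 23.4% (15.3 to 34.0) were W1-only and of their W2 peaks 27.8% (19.6 to 37.8) W2-only, and both intervals included the shares over all genes. Trp63, the master factor of stratified epithelium, had 12 W1 and 13 W2 peaks with 2 unshared at each time, and Gata3 had 5 and 5 with 1 unshared at each. Klf4, a factor of barrier formation, had 4 W1-only and 3 W2-only peaks, and Klf5 had 3 W1-only and none W2-only. Within 10 kb of the gene body, Trp63, Gata3 and Klf4 had 2, 1 and 1 W1-only peaks and no W2-only peak. Cebpa, a factor of differentiation, had no W1 peak and 3 W2-only peaks, the strongest by rank at percentile 64.4 with 61 fragments.

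Of the 11 genes of the EGF receptor pathway, 1 had a W1-only and 10 a W2-only peak, and 3.70% (0.657 to 18.3) of its 27 W1 peaks were W1-only and 41.7% (28.8 to 55.7) of its 48 W2 peaks W2-only, beside 22.0% and 32.1% of the peaks of all genes, so that the first interval lay below the share over all genes and the second included it. With peaks counted only within 10 kb of the gene body, Areg, Hbegf and Btc had no W2-only peak. The W2-only share was higher still in the Hedgehog list (11 of 22 peaks, 50.0%). Egfr, the receptor, went from 5 to 8 peaks. Among ligands, Ereg had none at W1 and 1 at W2 (percentile 51.7, 36 fragments), Btc none and 2, Areg 1 and 2, Hbegf 1 and 2, Tgfa 3 and 4, and Epgn 4 and 6. Among inhibitors, Lrig1 went from 6 to 12 with 5 W2-only peaks and Errfi1 from 7 to 10 with 1 W1-only peak. Erbb3 had 1 W2-only peak (percentile 11.2, 26 fragments) and Erbb2 had none. The genes Areg, Ereg, Btc and Epgn lie close together on chromosome 5, so their peaks share a locus. Of 9 AP-1 factors, 3 had a W1-only and 8 a W2-only peak, with a W1-only share of 13.6% (4.75 to 33.3) and a W2-only share of 37.8% (24.1 to 53.9) whose intervals included those of all genes: Fosl2 went from 4 to 8 peaks, Jun from 2 to 5 of which 1 was W2-only, and Jund from none to 1 promoter peak (percentile 50.7, 42 fragments). Within 10 kb of the gene body Jun had 1 shared peak at W1 and 2 at W2. Fosl2 had 1 shared peak at each time and 2 W2-only peaks there.

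In the developmental pathways W2-only peaks outnumbered W1-only peaks, as they did over all genes (5235 against 2958). The W2-only shares were 40.0% (28.6 to 52.6) for WNT, 50.0% (30.7 to 69.3) for Hedgehog, 30.9% (20.3 to 44.0) for Notch and 41.1% (29.2 to 54.1) for TGF-beta and BMP, and each interval included the 32.1% of all genes. The W1-only shares were 16.7%, 21.4%, 15.6% and 17.9% in the same order, and each interval included the 22.0% of all genes. Gene counts below stand beside 9.80% of all genes with a W1-only and 16.5% with a W2-only peak. In the WNT list of 20 genes there were 7 W1-only and 24 W2-only peaks, 10 of the latter at 2 ligand genes. Wnt4 went from 1 to 6 peaks, and Wnt10a from 1 promoter peak at W1 (percentile 7.81, 32 fragments) to 5 other peaks at W2, the highest at percentile 53.5 with 51 fragments. Axin2, a target and inhibitor of WNT signalling, went the other way, with 3 W1-only and no W2-only peak around 3 shared ones, the highest of which had 135 fragments at W1 and 159 at W2. In the Hedgehog list of 12, 3 genes had a W1-only and 6 a W2-only peak: Gas1, a co-receptor, went from 4 to 8 peaks, Cdon, another, from none to 2, and the receptor gene Ptch1 from none to 1 peak (percentile 24.4, 34 fragments), while Shh, Gli1 and Hhip had none at either time. In the Notch list of 14, the counts were 6 and 8: Hes1, a target, went from 6 to 10 and Rbpj, the DNA-binding effector, from 1 to 5, whereas Jag1, a ligand, had 2 W1-only and 1 W2-only peak. With peaks counted only within 10 kb of the gene body, Hes1 had 4 at each time, 1 of them unshared at each, and Cdon had 1 shared peak at each, while Rbpj went from none to 4. Gas1 had only 1 peak within that distance, a W2-only one. In the TGF-beta and BMP list of 23, the counts were 4 and 9. Tgfbr3 went from 12 to 17 peaks, Smad3 from 2 to 7 and Id1 from 1 to 4, and Bmp4 had 2 W1-only peaks and none at W2.

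Lists of other roles and cell types were set beside the 65.4% of all genes without a peak. Cell cycle genes had 3 W1-only and 5 W2-only peaks over 21 genes, 7 of which had no peak, and ribosomal protein genes 0 and 5 over 16, 7 of which had none. Their W1-only shares were 18.8% (6.59 to 43.0) and 0% (0 to 29.9) and their W2-only shares 27.8% (12.5 to 50.9) and 35.7% (16.3 to 61.2), with intervals that included the 22.0% and 32.1% of all genes. Of 12 cartilage targets of SOX9, 8 had no peak, Col2a1 and Acan among them, while Sox5 and Sox6 held 11 of the 13 W2 peaks. Melanocyte, fibroblast, and endothelial and immune genes had no peak at 6 of 8, 6 of 8 and 9 of 12 genes, close to the share over all genes, among them Tyr, Dct, Pdgfra, Col3a1, Ptprc and Cdh5. Mitf, a melanocyte factor, had 3 W1-only peaks, Pecam1, an endothelial adhesion gene, had 4 W1-only and 1 W2-only, and Tek, an endothelial receptor gene, had 3 W2-only. A peak near a gene does not show that the gene is expressed, so these counts do not measure the cells in the sort.

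**Figure D5:**
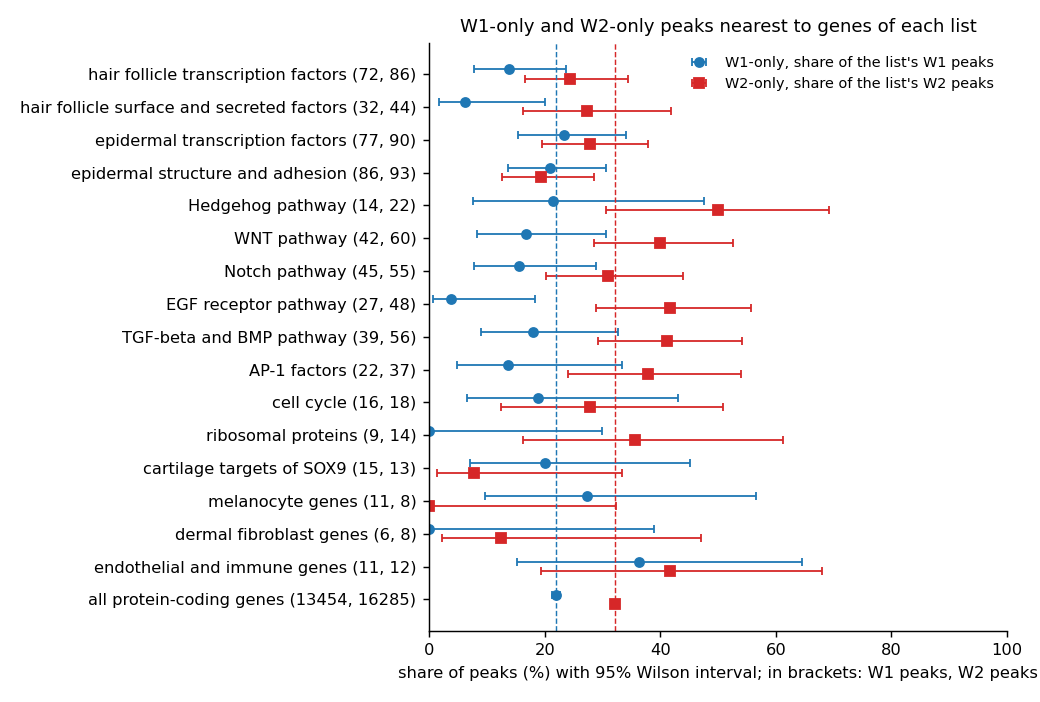
Share (%) of the W1 peaks nearest to each gene list that were W1-only (circles) and of its W2 peaks that were W2-only (squares), with 95% Wilson intervals; brackets give the numbers of W1 and W2 peaks and dashed lines the shares over all protein-coding genes, 22.0% and 32.1%. The EGF receptor list has the lowest W1-only share above 0, 3.70%, and its interval and that of the follicle surface list lie below the W1-only line. These shares rest on 1 and 2 W1-only peaks, and no allowance was made for the number of lists compared.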

How the data were processed

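CNR was analysed in 4 SOX9 libraries of the series, 2 each at W1 and W2. Per the study's methods, Skewer trimmed the reads, which were mapped to mm10, replicates were pooled, fragments up to 120 bp were kept and peaks were called with SEACR at a stringent threshold of 0.01 and a score above 1800. The submitters' processing notes name Bowtie2 2.2.9, Picard, SAMtools 1.3.1 and deepTools 3.1.2. The deposited lists give each peak's position, its total signal (coverage summed over the peak) and its maximum, which is in RPKM in the SOX9 and MYC-tag lists as the authors made them while the MLL3/4 lists were used by position and total signal, so signals were ranked within a list only.

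From these lists, overlaps (at least 1 bp), widths, percentile ranks and distances to GENCODE M21 starts were computed with Python 3.11.15, pandas 2.3.3 and pysam 0.24.0, on assembled chromosomes only. A promoter peak lay within 1 kb of any annotated start; a start within 100 kb linked a peak to a gene. Words were counted in RefSeq GRCm38.p6 (mm10) sequence within 50 bp of the centre of the maximum and in windows 1 kb to each side. Peaks moved by 10 kb gave a local background. Fragments per maximum came from the RPKM step, with all W1 and W2 values whole within 0.05. The precision is that of counting only, since each group is 1 list. The functions were tested on simulated lists. The members, gene lists and words were chosen with earlier results of these data known. The text names members of the gene lists, the 5 genes with the most peaks of each class, the genes nearest the 3 highest peaks of each class and the 3 largest rises and falls in rank among pairs above the median rank in either list, plus genes it marks as chosen later. Alternatives changed the overlap rule, list size, thresholds, merging, promoter size, ranking, words and windows. Lists of mutant SOX9 forms and of MLL3/4 in cultured cells were not used here. A few members of the gene lists and 1 window are not reported here.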

Additional observations from a re-analysis of the deposited data

How the results depend on the processing

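No paired analysis was possible because each group is 1 list called on pooled replicates, and leaving out a replicate could not be done for the same reason. Of 86 alternative values, 31 stayed within the interval of the value reported (for gene numbers, within 1.5 times), 53 moved outside it and 2 changed sign, and no group difference carries a test. The W1-only and W2-only shares were 28.7% and 25.5% at equal list size, 20.2% and 49.5% above 3600 RPKM, 32.5% and 22.7% with at least 32 fragments in both, 20.9% and 29.4% when a gap of up to 500 bp counted as shared, and 24.4% and 33.5% without no-DOX MYC-tag peaks (chosen after seeing the data); merging within 500 bp gave 21.6% at W1. Their order turned under equal size and the fragment minimum, and list length or depth bears on any statement of how much binding was gained or lost. Median widths at W1 and W2 were 826 and 516 bp above 3600 RPKM and 698 and 447 bp after merging, and 469 bp at W2 with equal size. Ranked by maximum, W1-only and W2-only peaks had median percentiles of 26.1 and 25.5, which turned their order. Median rank changes of paired promoter and distal sites were 8.78 and -1.04 points at equal size (69.0% and 46.2% rose) and 9.85 and -1.20 with ranks among the pairs alone (72.7% and 46.2% rose), so the sign turned at distal sites. Promoter shares of shared, W1-only and W2-only peaks were 32.1%, 25.6% and 41.3% at 2.5 kb; shared and W1-only were 14.8% and 7.56% above 3600 RPKM; W1-only was 17.9% at equal size; shared and W2-only were 19.3% and 31.0% without no-DOX peaks. SOX word shares in the same order were 5.64%, 5.25% and 3.03% with longer words, 31.9%, 33.0% and 17.9% with shorter words and 17.4%, 16.1% and 11.1% with windows of 100 bp. Above 3600 RPKM in all lists, W1-only and W2-only peaks recurred in 22.9% and 40.1% at W6 and in 7.44% and 7.68% at W12. On the upper 50% of each MLL3/4 list, W1-only and W2-only shares were 37.1% and 34.8% at D0, 41.3% and 27.5% at W1 and 27.9% and 33.5% at W2; requiring 50% overlap gave 50.9% at W1 and 61.0% at W2 for W2-only peaks. Where a value moved, the cause was not tested.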
